A study of Drosophila melanogaster with 30 samples.

Results

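The comparison described here set the anterior 1/4 of cut prothoracic leg imaginal discs against the matching region of uncut discs, both after 12 h of culture. There were 3 cut and 3 uncut samples, 6 of the 30 samples in the series. The genes described are those of the authors' deposited table of cut comparisons, which lists 1480 probe sets, 115 of them without a gene name, for 1314 genes. A probe set is a group of short probes on the array that report 1 transcript or several of the same gene. The table holds only probe sets that passed the authors' overall test of 4 cut comparisons, so a gene that is absent was not listed, which is different from unchanged.

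In the cut group, a prothoracic leg disc was cut to its anterior 1/4, the fragment was grown for 12 h in the abdomen of an adult female fly, and the part of it that was GFP-positive was then isolated. In the uncut group, whole discs were grown in the same way for 12 h, and the region that corresponds to the anterior 1/4 was taken. Both groups came from male larvae of 100 h after embryo laying with the driver puc[E69-I]-GAL4, UAS-flp, AyGAL4 and UAS-GFP on a w/Y background, so the reporter alleles were also present in uncut discs. The driver follows puc, whose phosphatase product restrains JNK and which JNK itself switches on, and the flippase makes GFP expression permanent in the descendants of cells that switched it on. Since only cut samples were isolated by GFP, the effect of the cut and that of the isolation cannot be told apart. These are bulk samples, in which fewer cells of a type and less RNA per cell cannot be told apart either. Uncut anterior regions without culture (0 h), cut and uncut posterior 3/4 regions at 12 h, and cut and uncut anterior regions at 24 h, with 3 samples in each group, served for context.

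Imaginal discs are the larval sacs of epithelium that form adult appendages, and a leg disc can regrow missing parts when a fragment is cultured in a fly's abdomen. At a wound edge, JNK signalling is one of the first pathways to act, and it induces secreted Unpaired ligands of the JAK/STAT pathway, matrix metalloproteinases and the relaxin-like peptide Dilp8. Dilp8 holds back the steroid hormone ecdysone, whose pulses drive the disc's patterned differentiation and the making of cuticle. A regenerating disc therefore couples local growth with a pause in the timing of development.

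Values are log2 expression values relative to the mean of the same probe set over all 30 arrays, so 0 is that mean, and a level cannot be compared between genes. A fit with limma over all 10 groups gave the log2 difference, cut minus uncut, and a p-value adjusted by the Benjamini-Hochberg method over the 18769 probe sets tested. "Rose" and "fell" are used of genes with an adjusted p under 0.05, and folds are 2 to the power of the log2 difference. The median standard error of a difference was 0.117 on the log2 scale. Of all probe sets tested, 592 were higher in cut than in uncut samples (3.15%) and 1068 were lower (5.69%). Among those at least 2-fold different, the numbers were close to even, with 175 higher and 164 lower. In the authors' table of cut comparisons, 953 of the 1480 probe sets (64.4%) were past the threshold, 352 of them higher and 601 lower. Since that table was filtered on a test that includes this contrast, its counts are a description and are not read against the percentages above. With 1 probe set a gene, 324 of the 1314 genes rose and 516 fell. The median log2 difference was -0.02 over these genes and 0.02 over all probe sets tested. The gene lists used below also count genes that are named only in the authors' table of culture comparisons, and such genes are marked as outside the cut table where they are named. Lists of pathway and marker genes are described by counts and medians, with no test of the list. Of all 3149 genes named in either table, 360 rose (11.4%) and 632 fell (20.1%), with a median log2 difference of -0.09. These shares mix the 1314 genes of the cut table with 1835 genes named only in the culture table. Most members of some lists are in the cut table, such as 15 of 20 innate immunity and 9 of 11 leg patterning genes. The filter alone can lift their counts above these shares, so each list's counts are a description and not a sign of enrichment.

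The signals that damaged discs secrete were among the clearest rises. Ilp8, which encodes Dilp8, had log2 values of 2.10, 1.18 and 1.75 in the cut samples, against -1.59, -1.29 and -1.55 in the uncut samples. All 3 cut samples lay more than 2 log2 units above the highest uncut sample, and the gene rose 8.92-fold (95% interval 6.56 to 12.1, adjusted p = 6.68e-10). The Unpaired ligand gene upd (upd1) had values of 2.08, 1.39 and 1.73 in the cut samples, against -0.84, -0.79 and -1.02 in the uncut samples. The groups were again far apart, with a rise of 6.14-fold (95% interval 4.67 to 8.08, adjusted p = 2.35e-09). The related ligand gene upd3 rose by less, 1.65-fold (95% interval 1.42 to 1.91, adjusted p = 3.6e-05), with values of 0.54, 0.44 and 0.41 in the cut samples, against -0.14, -0.41 and -0.22 in the uncut samples. Its groups did not overlap and each was tight. Of the pathway's other named members, Ptp61F, a phosphatase that damps JAK/STAT signalling, rose 1.59-fold (adjusted p = 0.00533), and hop, the JAK kinase, fell 1.35-fold (adjusted p = 0.00364). The transcription factor gene chinmo, which has been placed downstream of JAK/STAT in other fly tissues, rose 2.77-fold (95% interval 1.79 to 4.27, adjusted p = 0.00232). Of 9 named genes in the JAK/STAT list, 4 rose and 1 fell.

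Of 12 named genes of the JNK list 5 rose, 0 fell and 7 did not pass. Ets21C, an ETS-domain factor that JNK activates, had values of 1.90, 0.80 and 1.16 in the cut samples, against -0.58, -0.55 and -0.90 in the uncut samples, and scaf, a protease-like antagonist of JNK signalling, had 1.33, 0.82 and 0.86 in the cut samples, against -0.41, -0.80 and -0.55 in the uncut samples. Replicate 1 was the highest cut sample for both genes, and no uncut sample reached any cut sample. Their rises were 3.90-fold (95% interval 2.81 to 5.41, adjusted p = 2.56e-06) and 3.02-fold (95% interval 2.26 to 4.03, adjusted p = 8.23e-06). Pvf1, a growth factor related to PDGF and VEGF, rose 2.42-fold (adjusted p = 0.000255), and its receptor gene Pvr rose 1.61-fold (adjusted p = 0.00456). The call for Pvr was lost without replicate 3 of the uncut samples (adjusted p up to 0.0556). The actin crosslinker gene cher, a gene outside the cut table, also rose (1.35-fold, adjusted p = 0.0374), a call lost without replicate 1 or 2 of the cut samples or replicate 2 or 3 of the uncut samples (adjusted p up to 0.143). The TNF ligand gene egr, which acts upstream of JNK, did not pass (log2 difference -0.42, adjusted p = 0.123).

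Both matrix metalloproteinase genes, whose enzymes cut basement membrane and are needed for disc and wound repair, rose. Mmp1 had values of 2.06, 1.54 and 1.77 in the cut samples, against -0.32, -1.08 and -1.03 in the uncut samples, a rise of 6.06-fold (95% interval 3.90 to 9.41, adjusted p = 3.34e-06). Its other 2 probe sets rose as well, with log2 differences of 2.35 and 1.12. Mmp2 had values of 1.13, 0.69 and 1.03 in the cut samples, against -0.45, -0.34 and -0.37 in the uncut samples, a rise of 2.52-fold (95% interval 1.96 to 3.25, adjusted p = 1.59e-05). For both genes every cut sample was above every uncut sample by a wide margin. The wound-response gene rgn (regeneration) was higher in every cut sample but missed the threshold (log2 difference 0.43, adjusted p = 0.0545). The transcription factor gene grh, known for its role in epidermal wound repair, fell, with a log2 difference of -0.58 ± 0.09 (SE, adjusted p = 0.000169), and the oxidase gene Duox fell 1.37-fold (adjusted p = 0.0128). The call for Duox was lost without replicate 3 of the cut samples or replicate 2 of the uncut samples (adjusted p up to 0.0897).

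The largest rise of all named genes was that of TotM, a secreted Turandot stress protein. Its values were 3.54, 3.33 and 4.51 in the cut samples, against -0.89, -0.38 and -0.06 in the uncut samples, and it rose 18.8-fold (95% interval 7.99 to 44.3, adjusted p = 3.56e-05). No uncut sample came near the cut samples, which themselves ranged over more than 1 log2 unit. The metallothionein gene MtnB, whose product binds metal ions, had values of 3.21, 3.25 and 4.23 in the cut samples, against -0.20, -0.60 and -0.31 in the uncut samples and rose 15.3-fold (95% interval 5.89 to 39.7, adjusted p = 0.000301). MtnA had 2.42, 2.58 and 2.41 in the cut samples, against 0.20, -1.47 and -0.48 in the uncut samples, a log2 difference of 3.06 ± 0.41 (SE, adjusted p = 2.1e-05). Its cut samples were nearly equal, while replicate 2 of its uncut samples was far below the other 2. MtnD rose 3.55-fold (adjusted p = 6.56e-05), and Ctr1B, a copper importer, fell 1.53-fold (adjusted p = 0.00557), so that of 5 named genes in the metallothionein and metal list 3 rose and 1 fell.

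**Figure D1:**
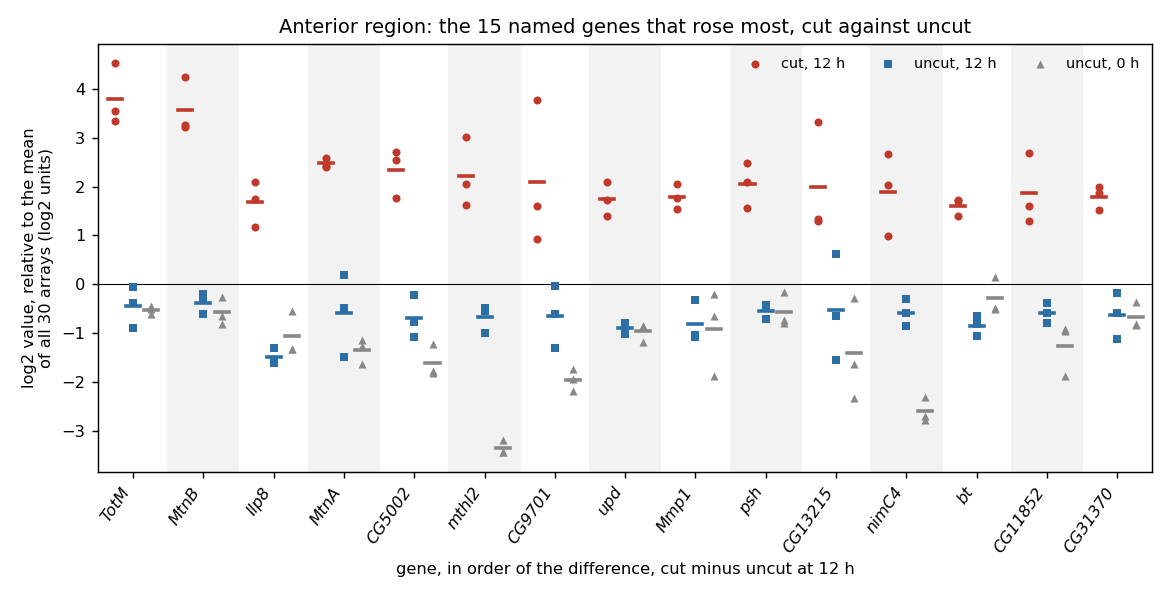
Log2 values relative to the mean of all 30 arrays (vertical axis) of the 15 named genes with the largest rises, 1 column a gene, for cut samples at 12 h (red circles), uncut samples at 12 h (blue squares) and uncut samples at 0 h (grey triangles) of the anterior region. Points are single samples and bars are the means of 3 samples. Only genes with an adjusted p under 0.05 and no overlap between cut and uncut samples were eligible. That the 3 red points lie above the 3 blue ones for each gene therefore follows from the choice. CG9701 and CG13215 each have 1 cut sample far above the other 2.

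The plot of the largest rises shows these genes beside others with less known roles. psh encodes persephone, a protease that starts Toll signalling, and had values of 2.48, 1.55 and 2.10 in the cut samples, against -0.41, -0.48 and -0.71 in the uncut samples, a log2 difference of 2.58 ± 0.36 (SE, adjusted p = 3.21e-05). nimC4, a Nimrod receptor used by phagocytes to take up dying cells, rose 5.54-fold (adjusted p = 7.67e-06). Its uncut samples at 12 h were all above the uncultured samples, which had -2.30, -2.68 and -2.78. mthl2, a receptor gene of the Methuselah-like family, rose 7.44-fold (adjusted p = 5.87e-06) and had the same order of groups, with uncultured samples at -3.17, -3.43 and -3.41. bt, which encodes the titin-like muscle protein projectin, rose 5.46-fold (95% interval 4.11 to 7.25, adjusted p = 9.68e-09), with values of 1.70, 1.39 and 1.73 in the cut samples, against -0.65, -0.82 and -1.05 in the uncut samples. CG5002, CG31370 and CG11852 (Jhbp7) rose 8.14-fold, 5.32-fold and 5.43-fold. CG9701 rose 6.73-fold (95% interval 3.19 to 14.2, adjusted p = 0.000998), but its cut samples were 3.77, 0.92 and 1.61, and without replicate 1 the fold moved by 1.78 times. CG13215 rose 5.66-fold (95% interval 2.46 to 13.0, adjusted p = 0.00638), a call lost without replicate 1 of the cut samples or replicate 3 of the uncut samples (adjusted p up to 0.0603). Its fold moved by 1.59 times without replicate 1 of the cut samples.

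Of 20 named genes of innate immunity 12 rose, 0 fell and 8 did not pass, and their median log2 difference was 0.78. PGRP-SA, the receptor that recognises Gram-positive bacteria for the Toll pathway, had values of 2.01, 1.40 and 1.51 in the cut samples, against -0.05, -0.72 and -0.61 in the uncut samples. It rose 4.29-fold (95% interval 3.25 to 5.66, adjusted p = 1.15e-07), with every cut sample far above the highest uncut one. TepII (Tep2), a thioester-containing opsonin, rose 2.57-fold (95% interval 2.07 to 3.20, adjusted p = 1.55e-06), and nec, a serpin that restrains persephone and Toll, rose 2.16-fold (95% interval 1.73 to 2.72, adjusted p = 3.91e-05). PGRP-LF, an inhibitory receptor of the Imd pathway, rose 2.46-fold (adjusted p = 0.00324), and PGRP-LB, an amidase that degrades peptidoglycan, rose 1.92-fold (adjusted p = 0.000946). The antimicrobial peptide gene AttA had cut values of 1.77, 0.37 and 0.65 and uncut values of -0.12, -0.25 and -0.14, a rise of 2.14-fold (adjusted p = 0.00347). Replicate 1 was far above the other 2 cut samples. The antifungal peptide gene Drs had 1.32, 0.86 and 2.52 in the cut samples, against -0.36, 0.24 and -0.44 in the uncut samples, and its rise of 3.38-fold (adjusted p = 0.0215) was lost without replicate 3 of the cut samples or replicate 1 or 3 of the uncut samples (adjusted p up to 0.191). GNBP2 rose 1.49-fold (adjusted p = 0.00231), and the NF-kappaB factor gene Dif rose 1.41-fold (adjusted p = 0.0135), a call lost without replicate 1 of the cut samples or replicate 2 or 3 of the uncut samples (adjusted p up to 0.0874). The related factor genes outside the cut table, Rel (-0.03) and dl (-0.002, both log2 differences), did not pass. The peptide genes Mtk (0.86), AttD (0.62) and CecB (0.50) were higher on average without passing.

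Proteases and their inhibitors moved in both directions. Of 14 named genes of that list 6 rose and 3 fell. Sp7, a protease of the melanization cascade, rose 2.60-fold (adjusted p = 7.99e-05). The serpin gene Spn42De rose 2.51-fold (adjusted p = 9.37e-07), and ea, the easter protease of the Toll cascade, rose 2.0-fold (adjusted p = 0.000755). Among the falls, Sb, a transmembrane protease needed for leg shape, had values of -1.41, -1.42 and -1.36 in the cut samples, against 0.04, -0.49 and -0.11 in the uncut samples and fell 2.32-fold (adjusted p = 0.0035). The serpin genes Spn100A and Spn43Aa fell 3.96-fold and 6.26-fold. The call for Spn43Aa was lost without replicate 2 of the uncut samples (adjusted p up to 0.0568), and its fold moved by 1.51 times without replicate 1 of the uncut samples.

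Glutathione transferases detoxify electrophiles, and 3 of the named GstE genes rose. GstE6 had values of 2.08, 1.02 and 1.85 in the cut samples, against -0.73, 0.75 and -1.26 in the uncut samples, a rise of 4.19-fold (adjusted p = 0.0482). GstE5 rose 2.82-fold (adjusted p = 0.0151) and GstE1 rose 1.70-fold (adjusted p = 0.03). Replicate 2 of the uncut samples was far above the other uncut samples of GstE6. The call for GstE6 was lost without replicate 1 or 3 of the cut samples or replicate 1 or 3 of the uncut samples (adjusted p up to 0.207), that for GstE5 lost without replicate 1 or 3 of the cut samples or replicate 2 of the uncut samples (adjusted p up to 0.0772) and that for GstE1 lost without replicate 1 of the cut samples or replicate 2 or 3 of the uncut samples (adjusted p up to 0.13). GstE7 (1.18), GstE3 (0.99), GstD2 (0.65) and GstD3 (0.53) had positive log2 differences that did not pass. With Sod2, the mitochondrial superoxide dismutase gene (1.23-fold, adjusted p = 0.031), 4 of 11 named genes of the detoxification and redox list rose and 0 fell. The call for Sod2 was lost without replicate 2 or 3 of the cut samples or replicate 2 or 3 of the uncut samples (adjusted p up to 0.159).

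Tanning enzymes make the pigment and crosslinks of cuticle, and of 11 named genes of that list 5 rose, 2 fell and 4 did not pass. Ddc, the dopa decarboxylase, had values of 2.58, 1.14 and 1.16 in the cut samples, against -1.0, -1.33 and 0.84 in the uncut samples. Its replicate 3 of the uncut samples lay only just below the cut samples, and the rise of 4.36-fold (95% interval 1.92 to 9.88, adjusted p = 0.0189) was lost without replicate 1 of the cut samples or replicate 1 or 2 of the uncut samples (adjusted p up to 0.116). Its fold moved by 1.59 times without replicate 3 of the uncut samples. yellow-b was more even, with 1.70, 1.06 and 1.27 in the cut samples, against -0.22, -0.33 and -0.57 in the uncut samples and a rise of 3.29-fold (95% interval 2.44 to 4.42, adjusted p = 4.15e-06). yellow-c rose 2.73-fold (95% interval 1.80 to 4.14, adjusted p = 0.00177). The genes e (ebony) and b (black), whose enzymes attach and make the beta-alanine used in tanning, rose 2.32-fold (adjusted p = 0.000396) and 2.15-fold (adjusted p = 0.0167), and the call for black was lost without replicate 1 of the cut samples or replicate 2 of the uncut samples (adjusted p up to 0.129), and under repeated quantile normalization (adjusted p = 0.0503). Gld, the glucose dehydrogenase of cuticle, went the other way with -2.54, -2.76 and -2.90 in the cut samples, against -0.74, -1.60 and -0.12 in the uncut samples, a fall of 3.76-fold (95% interval 2.46 to 5.75, adjusted p = 0.000115). Its call was lost under repeated quantile normalization (adjusted p = 0.176). The pigment gene y (yellow) fell 1.53-fold (adjusted p = 0.000943).

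In the list of cuticle and chitin genes, 2 of 22 named genes rose and 7 fell. obst-E, a chitin-binding organiser of the larval cuticle, had values of 1.67, 1.72 and 1.47 in the cut samples, against 0.06, -0.06 and -0.005 in the uncut samples. In uncultured samples it had -3.18, -1.91 and -2.71, so the 3 groups did not overlap. The log2 difference of cut from uncut 12 h samples was 1.63 ± 0.28 (SE, adjusted p = 0.000345). A second probe set of obst-E, outside the cut table, rose by less (log2 difference 0.96, adjusted p = 0.0304). The cuticle protein gene Cpr72Ea rose 2.31-fold (adjusted p = 0.000275). Other Cpr genes fell, with log2 differences of -2.53 for Cpr100A, -1.50 for Cpr64Aa and -0.98 for Cpr66D. These calls were lost without 5, 3 and 2 of the 6 samples, each left out singly. Cpr51A (-0.80) and Cpr49Ac (-0.74) did not pass. Of the list's 7 falls 4 are in the cut table, and these Cpr genes are not marked in that respect. Cht5, a chitinase that digests old cuticle at the moult, had -0.65, -0.37 and -0.50 in the cut samples, against 0.73, 1.07 and 0.97 in the uncut samples and fell 2.69-fold (adjusted p = 0.00469). Cda4, a chitin deacetylase gene, fell 1.64-fold (adjusted p = 0.0047). Outside the cut table, kkv, the chitin synthase gene, fell 1.34-fold (adjusted p = 0.0342), a call lost without replicate 3 of the cut samples or any 1 of the uncut samples (adjusted p up to 0.243).

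The early ecdysone-response genes br, Eip75B and Eip74EF fell, while 13 of 20 named genes of the ecdysone list did not pass and the list's median log2 difference was -0.15. The BTB zinc finger gene br (broad), which sets the pupal programme, had values of -1.94, -1.27 and -1.35 in the cut samples, against 0.39, 0.07 and 0.40 in the uncut samples. All 3 cut samples were more than 1 log2 unit below the lowest uncut one, a fall of 3.49-fold (95% interval 2.67 to 4.55, adjusted p = 4.29e-07). Its other 3 probe sets fell too, with log2 differences of -1.17, -1.33 and -1.56. Eip75B, a nuclear receptor gene, had -1.37, -1.94 and -2.0 in the cut samples, against 0.23, -0.33 and 0.08 in the uncut samples and fell 3.40-fold (95% interval 2.44 to 4.73, adjusted p = 1.44e-05). A second probe set of Eip75B in the table fell as well (log2 difference -0.65), and another did not pass (-0.26). The ETS factor gene Eip74EF had -0.93, -1.02 and -0.91 in the cut samples, against 0.63, 0.12 and 0.53 in the uncut samples and fell 2.60-fold (95% interval 2.08 to 3.25, adjusted p = 1.63e-06). Its cut samples were nearly identical.

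The ecdysone-inducible membrane and secreted protein genes did not move as a group. ImpE2, named for its induction by ecdysone in discs, had -3.38, -1.86 and -2.20 in the cut samples, against -0.09, 1.06 and 0.88 in the uncut samples, a fall of 8.55-fold (95% interval 3.40 to 21.5, adjusted p = 0.00248). ImpE3, outside the cut table, fell 3.43-fold (adjusted p = 0.0071). ImpE1 had 1.39, 0.31 and 0.57 in the cut samples, against -0.74, -0.41 and -0.65 in the uncut samples and rose 2.56-fold (95% interval 1.80 to 3.63, adjusted p = 0.000571), although the cut samples stayed far below the uncultured ones, which had 2.53, 2.57 and 2.73. Its other 2 probe sets did not pass (0.77 and 0.86). The competence factor gene ftz-f1 did not pass (log2 difference 0.04, adjusted p = 0.93). Neither did EcR, which encodes the ecdysone receptor and is outside the cut table (-0.40, adjusted p = 0.191). Of 20 named genes of the ecdysone list 2 rose and 5 fell. The other rise was phm, an enzyme of ecdysone synthesis (1.35-fold, adjusted p = 0.0321), a call lost without replicate 1 or 2 of the cut samples or any 1 of the uncut samples (adjusted p up to 0.114).

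**Figure D2:**
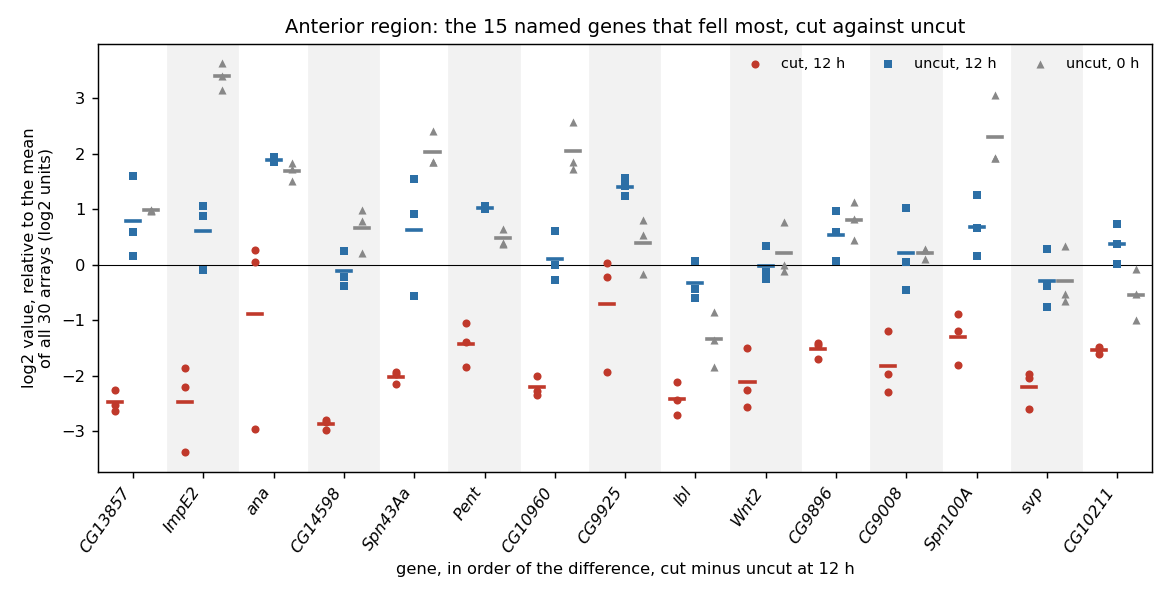
Log2 values relative to the mean of all 30 arrays (vertical axis) of the 15 named genes with the largest falls, 1 column a gene, for cut samples at 12 h (red circles), uncut samples at 12 h (blue squares) and uncut samples at 0 h (grey triangles) of the anterior region. Points are single samples and bars are the means of 3 samples. Only genes with an adjusted p under 0.05 and no overlap between cut and uncut samples were eligible. That the 3 red points lie below the 3 blue ones for each gene therefore follows from the choice. For ana and CG9925, 1 cut sample lies far below the other 2.

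The largest falls, plotted by sample, included secreted regulators of growth. CG13857 fell most, 9.56-fold (95% interval 5.05 to 18.1, adjusted p = 2.38e-05), with values of -2.63, -2.26 and -2.53 in the cut samples, against 0.16, 0.58 and 1.60 in the uncut samples. Pent (magu), a secreted protein that widens the Dpp gradient, had -1.84, -1.39 and -1.06 in the cut samples, against 1.06, 1.0 and 1.0 in the uncut samples. The uncut samples agreed within 0.1 log2 units, all cut samples were at least 2 log2 units below them, and the fall was 5.47-fold (95% interval 4.37 to 6.84, adjusted p = 3.12e-10). Wnt2, a Wnt ligand gene, had -2.57, -1.5 and -2.26 in the cut samples, against -0.13, -0.27 and 0.33 in the uncut samples and fell 4.26-fold (95% interval 2.97 to 6.10, adjusted p = 4.15e-06). lbl (ladybird late), a homeobox gene, fell 4.26-fold (95% interval 2.54 to 7.15, adjusted p = 0.000394), and svp, an orphan nuclear receptor gene, fell 3.77-fold (95% interval 2.50 to 5.69, adjusted p = 7.75e-05). CG14598 had -2.79, -2.98 and -2.83 in the cut samples, against -0.23, -0.38 and 0.24 in the uncut samples, a fall of 6.70-fold (95% interval 4.56 to 9.85, adjusted p = 2.42e-07). CG10960 (nebu), CG9896, CG9008 and CG10211 fell 4.99-fold, 4.17-fold, 4.09-fold and 3.77-fold. ana, a secreted glial glycoprotein that holds back neuroblast division, had -2.96, 0.26 and 0.04 in the cut samples, against 1.95, 1.84 and 1.84 in the uncut samples. Its fall of 6.78-fold (95% interval 3.12 to 14.7, adjusted p = 0.00141) became 2.05 times smaller in fold without replicate 1 of the cut samples, and that of CG9925 (4.29-fold, adjusted p = 0.000869) moved by 1.53 times without the same replicate.

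The named leg patterning transcription factors were lower with few exceptions. Of 38 genes on this list only 11 were named, 9 of them in the cut table, whose filter favoured genes that changed. Of these 11 genes 0 rose and 10 fell, with a median log2 difference of -0.83. The count describes these genes and not the list as a whole. The gene ap (apterous), a LIM homeobox factor of the distal leg, had values of -2.27, -1.91 and -2.08 in the cut samples, against -0.75, -0.60 and -0.16 in the uncut samples. bab1, a BTB factor of tarsal segments, had -1.97, -1.53 and -1.84 in the cut samples, against -0.45, -0.61 and 0.16 in the uncut samples, and B-H2 (BarH2), another distal homeobox gene, had -2.46, -2.60 and -3.06 in the cut samples, against -0.59, -2.13 and -0.32 in the uncut samples. Cut and uncut samples did not overlap for any of the 3 genes, although replicate 2 of the uncut samples of B-H2 came close to the cut ones. The falls were 2.99-fold (95% interval 2.0 to 4.45, adjusted p = 0.000464), 2.79-fold (95% interval 1.98 to 3.94, adjusted p = 0.000199) and 3.23-fold (95% interval 1.92 to 5.45, adjusted p = 0.00333). The call for B-H2 was lost under repeated quantile normalization (adjusted p = 0.182). A second probe set of ap did not pass (-0.23). The Hox gene Scr, which gives the prothoracic leg its identity, had -0.33, -0.24 and -0.53 in the cut samples, against 0.55, 0.33 and 0.49 in the uncut samples, a fall of 1.77-fold (95% interval 1.48 to 2.12, adjusted p = 8.72e-05). H15, a T-box gene of ventral fate, fell 2.45-fold (adjusted p = 0.00218), and vvl, a POU factor, fell 1.60-fold (adjusted p = 0.00124). Poxn, a Pax gene of chemosensory bristles that is outside the cut table, fell 1.75-fold (adjusted p = 0.00288). bi (omb), a Dpp target, fell 1.65-fold (adjusted p = 0.0469), with overlapping groups and a call lost without replicate 1 or 3 of the cut samples or replicate 1 or 2 of the uncut samples (adjusted p up to 0.277).

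Components of the signalling pathways that pattern the disc also fell, and in 4 of these lists no named gene rose. Of 24 genes on the Wnt pathway list only 3 were named, all of them in the cut table. That table was filtered on a test that includes this contrast, so the filter itself favoured genes that changed. The 3 genes fell: Wnt2, Wnt4 (2.06-fold, adjusted p = 0.000254) and the receptor gene fz (1.58-fold, adjusted p = 2.8e-05). The count describes these genes and not the pathway as a whole. In the Dpp and Activin list, 7 of 9 fell, among them Pent, the receptor gene wit (1.70-fold, adjusted p = 0.000169), the transducer gene Mad (1.32-fold, adjusted p = 0.0468) and the co-repressor gene shn (1.29-fold, adjusted p = 0.00822). The call for Mad was lost without replicate 2 or 3 of the cut samples or any 1 of the uncut samples (adjusted p up to 0.287), and that for shn was lost without replicate 3 of the cut samples (adjusted p up to 0.0823). Without replicate 3 of the cut samples the Dpp and Activin list had 3 falls. In the Notch list 8 of 11 fell, and 4 without the same replicate. The ligand gene Dl had -0.27, -0.46 and -0.57 in the cut samples, against 0.31, 0.02 and 0.37 in the uncut samples and fell 1.58-fold (adjusted p = 0.00132). The Enhancer of split genes HLHmdelta, HLHmbeta and HLHm7, which are direct Notch targets, all fell, with log2 differences of -1.03 ± 0.12 (SE, adjusted p = 3.98e-06), -0.58 ± 0.12 (SE, adjusted p = 0.00136) and -1.07 ± 0.26 (SE, adjusted p = 0.00854). The call for HLHm7 was lost without replicate 3 of the cut samples (adjusted p up to 0.0518). Su(H), the pathway's DNA-binding factor, fell 1.43-fold (adjusted p = 0.00724), a call lost without replicate 3 of the cut samples or replicate 3 of the uncut samples (adjusted p up to 0.0505). Of 20 genes on the EGFR list only 4 were named. The 3 of them that fell are those in the cut table, so the same limit holds. Among these, ru, a rhomboid protease gene that releases EGFR ligands, fell 2.66-fold (95% interval 1.89 to 3.74, adjusted p = 0.000298). The planar polarity genes pk and stan fell 2.33-fold (adjusted p = 1.18e-06) and 1.46-fold (adjusted p = 0.000374).

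Genes of sensory organ precursors, a list drawn up after values had been seen, were lower in 9 of 10 cases. The proneural target gene ase (asense) had -2.08, -1.71 and -0.81 in the cut samples, against 0.63, 0.09 and 0.17 in the uncut samples, a fall of 3.56-fold (adjusted p = 0.00104). sens (senseless), a zinc finger factor outside the cut table, fell 3.00-fold (adjusted p = 0.00304). klu fell 2.46-fold (adjusted p = 7.41e-05), phyl fell 2.10-fold (adjusted p = 0.000506) and ttk fell 1.98-fold (adjusted p = 0.000392). The second probe set of ttk fell by the same amount, with a log2 difference of -0.97. insc was the member that rose (1.71-fold, adjusted p = 0.0391), a call lost without any 1 of the cut samples or any 1 of the uncut samples (adjusted p up to 0.15).

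Growth and nutrient genes gave a mixed picture. Ilp6, an insulin-like peptide gene of the fasting larva, had 0.66, 0.63 and 1.05 in the cut samples, against -0.31, -0.68 and -0.45 in the uncut samples and rose 2.39-fold (95% interval 1.91 to 3.00, adjusted p = 7.95e-06). The insulin receptor gene InR had -0.20, -0.56 and -0.38 in the cut samples, against -0.04, 0.55 and 0.14 in the uncut samples and fell 1.52-fold (adjusted p = 0.00662), a call lost without replicate 2 of the uncut samples (adjusted p up to 0.0702). foxo, the transcription factor that insulin signalling restrains, fell 1.64-fold (adjusted p = 0.0076), a call lost without replicate 3 of the cut samples (adjusted p up to 0.0589). The genes scyl and chrb, the fly REDD genes that inhibit TOR, fell 1.65-fold (adjusted p = 0.00149) and 1.68-fold (adjusted p = 0.000464). Of 16 named genes of this list 1 rose and 7 fell. Of the glycolysis list 3 of 5 fell, with Pfk, the gate enzyme, at -0.75, -0.41 and -0.69 in the cut samples, against 0.26, 0.10 and 0.17 in the uncut samples, a fall of 1.74-fold (95% interval 1.48 to 2.04, adjusted p = 3.21e-05). Pgi fell 1.48-fold (adjusted p = 0.000732), and Ald fell 1.32-fold (adjusted p = 0.0125), a call lost without replicate 3 of the cut samples or replicate 1 of the uncut samples (adjusted p up to 0.104).

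Ribosomal protein genes, another list drawn up after values had been seen, fell in 11 of 16 cases and rose in 1. RpL26 had -0.21, -0.14 and -0.53 in the cut samples, against 0.29, 0.49 and 0.37 in the uncut samples and fell 1.60-fold (95% interval 1.38 to 1.84, adjusted p = 6.44e-05). RpS9 fell 1.97-fold (adjusted p = 1.05e-05), RpL11 1.66-fold (adjusted p = 0.000272) and RpS13 1.66-fold (adjusted p = 3.92e-05). A second probe set of RpS9, outside the cut table, fell by less (log2 difference -0.41, adjusted p = 0.0189). RpS5b, a paralogue best known from the ovary, was the exception with 1.34, 0.76 and 1.04 in the cut samples, against -0.40, -0.37 and -0.41 in the uncut samples, a rise of 2.73-fold (95% interval 2.12 to 3.50, adjusted p = 4.15e-06). Genes that build ribosomes did not follow the ribosomal proteins. Of 24 named ribosome biogenesis genes 6 rose and 1 fell, with NHP2 (1.52-fold, adjusted p = 0.00402), the polymerase I subunit gene RpI135 (1.52-fold, adjusted p = 0.00677) and hoip (1.45-fold, adjusted p = 0.00242) among the rises. The Myc gene dm, outside the cut table, did not pass (log2 difference -0.14, adjusted p = 0.602).

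Cell cycle genes showed little difference at 12 h. Of 17 named genes 0 rose and 2 fell, and the median log2 difference was 0.02. CycE, which starts S phase and is outside the cut table, fell 1.55-fold (adjusted p = 0.00638), a call lost without replicate 3 of the cut samples (adjusted p up to 0.0651). fzy, an activator of the anaphase-promoting complex, fell 1.48-fold (adjusted p = 0.00114), but a second probe set of fzy did not (log2 difference 0.01). The replication clamp gene mus209 (PCNA) had -0.03, 0.12 and -0.11 in the cut samples, against 0.11, -0.06 and -0.12 in the uncut samples, a difference of 0.02 with an adjusted p of 0.955. In the apoptosis list, Corp, an inhibitor of p53, rose 2.16-fold (adjusted p = 0.00261), and the Bcl-2 family gene Buffy fell 1.92-fold (adjusted p = 0.00357).

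Markers of other cell types were measured beside these groups. The 10 named hemocyte markers averaged -0.06, 0.11 and 0.44 log2 units in the cut samples, against 0.03, 0.20 and -0.36 in the uncut samples, and the groups overlapped. Hml (hemolectin) rose 2.16-fold (adjusted p = 0.0348), a call lost without replicate 3 of the cut samples or replicate 1 or 3 of the uncut samples (adjusted p up to 0.283), while eater (0.72), nimC1 (0.66) and nimB5 (0.47, log2 differences) did not pass. Cg25C, outside the cut table, and ush, also on this list, fell 1.57-fold (adjusted p = 0.0135) and 1.58-fold (adjusted p = 0.002). The call for Cg25C was lost without replicate 1 of the cut samples or replicate 2 of the uncut samples (adjusted p up to 0.0981). In all, 1 of 10 rose and 2 fell. The phagocyte receptor gene nimC4, which rose 5.54-fold, is not on this list and not in these counts. Replicate 3 had the highest mean of the cut samples and the lowest of the uncut ones, and Drs had its highest cut and lowest uncut value in the same replicates. Of the fat body and adult host list only the yolk protein gene Yp1, outside the cut table, carried a name, and it did not pass (log2 difference -0.26). The part that hemocytes or host tissue had in the immune rises was not tested.

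Myoblasts lie on the disc epithelium, and 6 of 8 of their named markers fell while 1, bt, rose. The myoblast transcription factor gene twi (twist) had -0.38, -0.37 and -0.43 in the cut samples, against 0.42, 0.53 and 0.52 in the uncut samples and fell 1.84-fold (95% interval 1.51 to 2.24, adjusted p = 0.000127). Mef2 fell 1.57-fold (adjusted p = 0.00345), the FGF receptor gene htl 1.60-fold (adjusted p = 0.00121), Him 1.65-fold (adjusted p = 0.0024) and zfh1 1.67-fold (adjusted p = 0.00456). A second probe set of Mef2 did not pass (-0.19). The 8 markers averaged -0.06, -0.09 and -0.16 in the cut samples, against 0.19, 0.17 and 0.14 in the uncut samples. Neuron and glia markers fell in 6 of 8 cases, with averages of -1.16, -0.77 and -0.56 in the cut samples, against 0.20, 0.12 and 0.17 in the uncut samples. Cut and uncut averages did not overlap for either list. Of the myoblast markers 7 of 8, and of the neuron and glia markers 6 of 8, are in the cut table. Its filter favoured such a separation, so the averages are a description only. Among the neuron and glia markers futsch, an axonal cytoskeleton gene, fell 2.32-fold (adjusted p = 0.000534), and repo, the pan-glial factor gene, fell 1.80-fold (adjusted p = 0.043). The call for repo was lost without replicate 2 or 3 of the cut samples or any 1 of the uncut samples (adjusted p up to 0.18). moody, a receptor gene of the glial blood-brain barrier, rose 2.33-fold (adjusted p = 3.46e-05). Their part in the falls of patterning and sensory genes was not tested. All 5 named leg disc identity markers (ap, bab1, bab2, H15, Scr) fell, so that they cannot serve to check the tissue, and levels that were centred per probe set do not show whether a marker is expressed at all. The wing and eye markers ara and toe fell 1.76-fold (adjusted p = 0.000201) and 2.26-fold (adjusted p = 0.000464), and dys was the 1 of 3 named tracheal markers that fell.

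**Figure D3:**
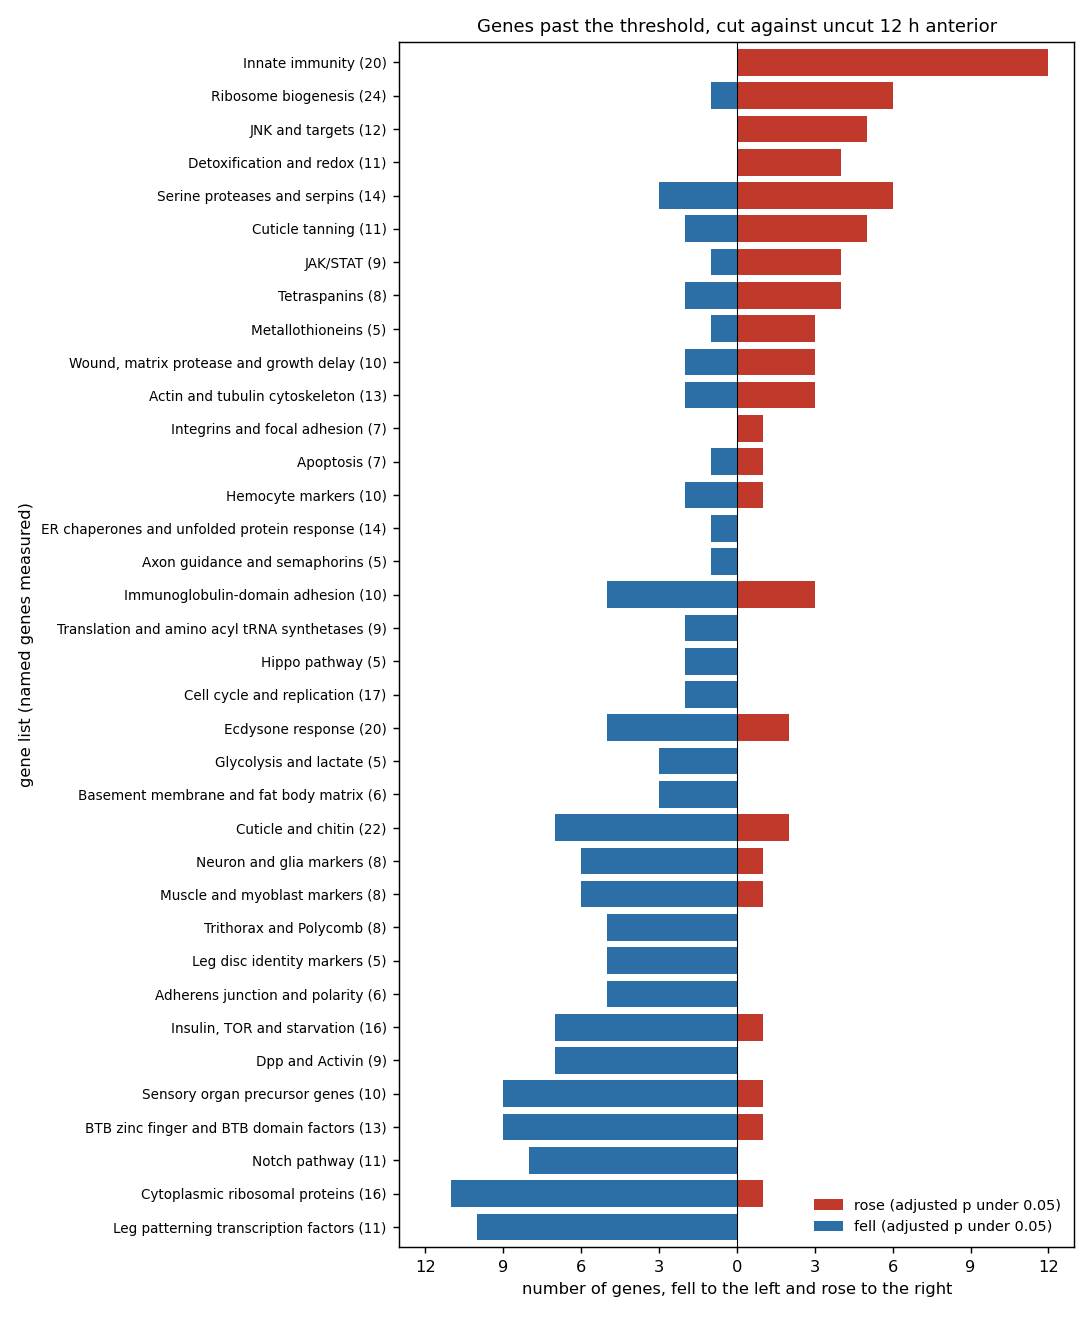
Number of genes past the threshold in each list (horizontal axis), with falls to the left in blue and rises to the right in red, for the comparison of cut with uncut 12 h anterior samples. Lists with at least 5 named genes are shown, and the number of named genes stands in parentheses. The innate immunity list has 12 rises and 0 falls, and the leg patterning list has 0 rises and 10 falls.

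The count of calls by list shows the remaining groups. In the immunoglobulin-domain adhesion list 3 of 10 named genes rose and 5 fell. Ama (amalgam), a secreted adhesion protein gene, had 0.88, 0.86 and 0.77 in the cut samples, against -0.03, -0.31 and -0.29 in the uncut samples and rose 2.06-fold (95% interval 1.78 to 2.39, adjusted p = 2.46e-07). dpr17 and dpr18, cell surface genes of the defective proboscis extension response family, rose 2.20-fold (adjusted p = 3.04e-07) and 3.82-fold (adjusted p = 0.000495). hbs (hibris), an adhesion receptor gene of muscle and epithelium, fell 2.62-fold (95% interval 2.01 to 3.42, adjusted p = 1.84e-05), and Fas3 fell 1.70-fold (adjusted p = 0.000201). Of 8 tetraspanins, a list drawn up after values had been seen, 4 rose and 2 fell, with Tsp42El rising 3.08-fold (adjusted p = 1.13e-05). Of 13 BTB factors, also listed afterwards, 9 fell and chinmo alone rose. Trithorax and Polycomb genes fell in 5 of 8 cases by small amounts, 1.31-fold for trx, 1.37-fold for ash2 and 1.41-fold for ph-p. These 3 calls were not stable: that for trx was lost without replicate 3 of the cut samples (adjusted p up to 0.123), that for ash2 lost without replicate 3 of the cut samples or replicate 1 of the uncut samples (adjusted p up to 0.13) and that for ph-p lost without replicate 1 or 3 of the cut samples or replicate 2 or 3 of the uncut samples (adjusted p up to 0.0981). Of 3 named septate junction genes none passed.

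The response was then set against that of the posterior region at the same time. The posterior samples are the GFP-positive parts of cut 3/4 fragments and the matching region of uncut discs, and the 2 comparisons share no sample. Of the 1660 probe sets past the threshold in the anterior region, 453 (27.3%) were also past it in the posterior at 12 h, which is 47.8% of the 947 called there (5.05% of all). All 453 had the same direction. Against the anterior region at 24 h, 467 were called in both, 28.1% of the calls at 12 h and 28.9% of the 1618 calls at 24 h (8.62% of all), 448 of them in the same direction and 19 in opposite ones. Against the posterior at 24 h, 912 were shared, 54.9% of the 12 h anterior calls and 49.4% of the 1848 calls there (9.85% of all). A gene called in 1 comparison and not in the other is not shown to differ, so the difference between the responses was tested as well.

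Between anterior and posterior at 12 h, the response differed for 39 of 18769 probe sets (0.208%), 20 with a higher and 19 with a lower anterior response. The 39 are all listed in the table, and 37 were past the threshold in the anterior. This count rests on single samples: it was 3 without replicate 3 of the uncut 12 h anterior samples and 4 without replicate 3 of the cut 12 h posterior samples. The bacterial receptor gene PGRP-SA had a log2 difference of 2.10 in the anterior and 0.42 in the posterior, and the responses differed by 1.68 (adjusted p = 0.00953). In the posterior its samples were 0.54, 0.36 and 0.47 after the cut and 0.06, 0.12 and -0.08 in uncut discs, so all cut samples were above the uncut ones there too. Tig (tiggrin), an extracellular matrix ligand of integrins, rose in the anterior with 2.04, 1.45 and 1.35 in the cut samples, against -0.08, -0.60 and -0.89 in the uncut samples and had a posterior difference of -0.006, which made a difference of 2.14 (adjusted p = 0.0113). CG8317 (Lst, limostatin), a peptide hormone gene that curbs insulin release in adult flies, rose 4.52-fold in the anterior and had a log2 difference of -0.62 in the posterior. The responses differed by 2.79 (adjusted p = 0.0326).

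MtnA (3.18), obst-E (1.90), CG7432 (1.74) and CG13215 (4.06) completed the 6 named genes with the largest positive differences on the log2 scale. For a second probe set of obst-E the difference between regions was 1.11 and did not pass (adjusted p = 0.467). MtnA had posterior values of 0.71, 0.36 and 0.68 in cut samples and 0.25, 0.90 and 0.98 in uncut samples, which overlapped. The tanning gene yellow-b (1.55), the opsonin gene TepII (1.19), the serpin gene Spn42De (0.96) and the tetraspanin gene Tsp42El (1.39) also had a higher anterior response. Among the lists, 2 of 20 immunity genes and 1 of 11 tanning genes showed such a difference, each with the higher response in the anterior. So did 1 of 10 hemocyte markers, CG6579 (atilla), a surface protein gene of lamellocytes. It had log2 differences of 0.36 in the anterior (adjusted p = 0.159) and -0.78 in the posterior (adjusted p = 0.00319), and the responses differed by 1.14 (adjusted p = 0.0257). Its part in the differences of the immunity genes was not tested.

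CG14598 had the largest negative difference among named genes. It fell by 2.74 on the log2 scale in the anterior and had a difference of 0.16 in the posterior, and the difference between the responses was -2.90 (adjusted p = 0.000821). The ecdysone-response gene br also had a deeper fall in the anterior. Its posterior samples were -0.46, -0.30 and -0.10 after the cut and -0.02, 0.15 and -0.32 in uncut discs and overlapped, so that its log2 difference was -1.80 in the anterior and -0.22 in the posterior. The responses differed by -1.58 (adjusted p = 0.0104). CG10960 (-2.02), CG9896 (-1.74), CG32447 (-1.71) and Wnt2 (-1.66) had negative differences as well. Pent fell in both regions, by 2.45 in the anterior and 1.41 in the posterior on the log2 scale, and these falls differed (-1.04, adjusted p = 0.0465). Ppn (papilin), a matrix protein gene, fell in the anterior (-0.68), a call lost without replicate 1 or 2 of the cut samples or replicate 1 or 2 of the uncut samples (adjusted p up to 0.0925), and had a positive difference in the posterior (0.62, adjusted p = 0.0532). The call for CG14598 held whichever 1 of the 12 samples of both comparisons was left out (adjusted p up to 0.00577). The calls for PGRP-SA, br and Tig were lost in 1, 2 and 3 of the 12 cases (adjusted p up to 0.0553 for each). The calls for the other genes named in this contrast were lost in 5 to 11 of the 12 cases.

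**Figure D4:**
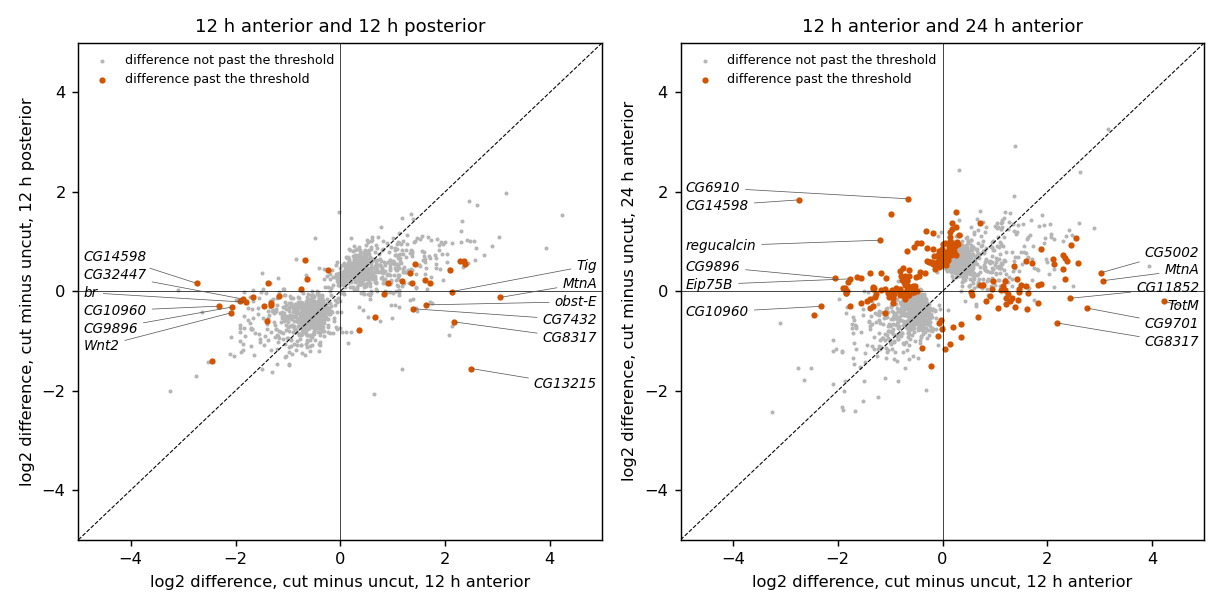
Log2 difference, cut minus uncut, in the 12 h anterior region (horizontal axes) against that in the 12 h posterior region (left, vertical axis) and the 24 h anterior region (right, vertical axis), 1 point for each of the 1480 probe sets of the table. Orange points are those whose 2 responses differed with an adjusted p under 0.05, and the dashed line marks equal responses. Most of the 39 orange points on the left lie far from 0 along the horizontal axis and near 0 along the vertical one, and on the right CG14598 lies at -2.74 along the horizontal and 1.84 along the vertical axis.

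Within the anterior region, the response at 12 h differed from that at 24 h for 403 probe sets (2.15%), 103 with a higher and 300 with a lower response at 12 h. Of the 403, 233 are listed in the table and 203 were past the threshold at 12 h. The 24 h uncut discs had spent longer in culture as well, so each response was measured against uncut discs of its own time. TotM, the largest rise at 12 h, had values of -1.13, -1.22 and 2.33 in cut samples and 1.06, -0.13 and -0.35 in uncut samples at 24 h, which overlapped, and the responses differed by 4.43 (adjusted p = 0.00572). The metallothionein genes MtnA (2.84) and MtnD (2.07) had a higher response at 12 h too. So did the immunity genes PGRP-SA (1.45), nec (1.10), PGRP-LF (1.49) and TepII (0.86). With TotM, 5 of 20 named immunity genes had a higher response at 12 h than at 24 h and none a lower one. Of 10 hemocyte markers, CG6579 had a higher response at 12 h (1.03, adjusted p = 0.011) and Sr-CI, a scavenger receptor gene, and ush had lower ones (-1.35 and -0.76), and their part was not tested.

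Other rises of the early time point followed the same order. Mmp2 was at -0.36, -0.07 and -0.26 in cut samples and -0.23, -0.23 and 0.17 in uncut samples at 24 h, and its responses differed by 1.47 (adjusted p = 0.00229). Mmp1, in comparison, rose at both times (2.60 and 1.36), and its responses did not differ past the threshold (1.24, adjusted p = 0.16). Ilp6 had -0.36, -0.10 and -0.11 in cut and -0.16, 0.06 and -0.30 in uncut samples at 24 h, and the responses differed by 1.32 (adjusted p = 0.00229). Of the Unpaired ligands, upd3 had the higher response at 12 h (0.60, adjusted p = 0.0273), and for upd the difference was 0.22 (adjusted p = 0.814). For Ilp8 it was -0.11 (adjusted p = 0.935). The tanning genes e (1.47), yellow-c (1.62) and yellow-b (1.15), the cuticle genes obst-E (1.66) and Cpr72Ea (1.34), and bt (1.51) also had a higher response at 12 h. For a second probe set of obst-E the difference between times was 0.97 and did not pass (adjusted p = 0.245). CG9701, CG8317, CG5002 and CG11852 were the other genes with the largest positive differences, from 2.58 to 3.09.

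The falls of the ecdysone factors at 12 h were not seen at 24 h. br had 0.11, -0.12 and -0.40 in cut samples and -0.45, -0.46 and -0.03 in uncut samples at 24 h, and its responses differed by -1.98 (adjusted p = 0.000216). Eip75B differed by -2.01 (adjusted p = 0.00156) and Eip74EF by -1.23 (adjusted p = 0.00342). Both had 24 h differences that did not pass (0.25 and -0.15). ftz-f1, which did not pass at 12 h, fell at 24 h (-1.17), and these responses differed by 1.21 (adjusted p = 0.01). A second probe set of ftz-f1 had a 24 h difference of -0.66, and its responses did not differ past the threshold (0.75, adjusted p = 0.173). CG14598 changed direction. At 24 h it had 0.86, 1.17 and -0.30 in cut samples, against -1.30, -1.45 and -1.04 in uncut samples, a log2 difference of 1.84 (adjusted p = 8.46e-05), and its 2 responses differed by -4.58 (adjusted p = 1.17e-07). Among the 19 probe sets called in opposite directions, regucalcin behaved likewise with -1.19 at 12 h and 1.03 at 24 h, although its 12 h call was lost without replicate 2 of the cut samples or replicate 2 of the uncut samples (adjusted p up to 0.124). CG6910 (Miox), an inositol oxygenase gene, did not pass at 12 h (-0.66) and rose at 24 h (1.86), a difference of -2.52.

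Over all 18769 probe sets, 300 had a lower response at 12 h than at 24 h. Of the lists, that of ribosomal proteins held the most genes with such a difference. This list was drawn up after values had been seen, so its place among the lists is only a description. Of 16 named genes, 8 had such a difference, from -0.58 for RpS23 to -1.10 for RpL29, and their list's median log2 difference was -0.60 at 12 h and 0.19 at 24 h in the anterior. RpL26 had 0.09, 0.31 and 0.32 in cut and -0.13, 0.06 and 0.08 in uncut samples at 24 h. Its responses differed by -0.91 (adjusted p = 0.000952). Of the 17 cell cycle genes 5 had a lower response at 12 h, among them mus209 (-0.66), RnrS (-0.58) and CycE (-1.14). mus209 rose at 24 h (0.68), and so did CycE (0.50). Pent fell at 12 h and had a difference of -0.47 at 24 h (adjusted p = 0.0609), so that the responses differed by -1.98 (adjusted p = 1.29e-05). The patterning genes Scr (-0.84), vvl (-0.70), fz (-0.75) and HLHmdelta (-0.99) and the myoblast gene twi (-0.94) also fell at 12 h and not at 24 h, with a difference past the threshold. The calls for TotM, MtnA, MtnD, PGRP-SA, nec, Mmp2, Ilp6, br, Eip74EF, Eip75B, ftz-f1, CG14598, regucalcin, Pent, CycE, Scr, fz, HLHmdelta, twi and RpL26 held whichever 1 of the 12 samples was left out. Those for PGRP-LF, TepII, upd3, yellow-b, yellow-c, obst-E, mus209, RnrS, CG9701, CG11852, CG6910 and vvl were lost in 5 to 10 of the 12 cases. For ap, bab1, B-H2 and lbl, which were lower at both times, the differences between times were -0.05, -0.23, -0.24 and -0.23 and did not pass.

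**Figure D5:**
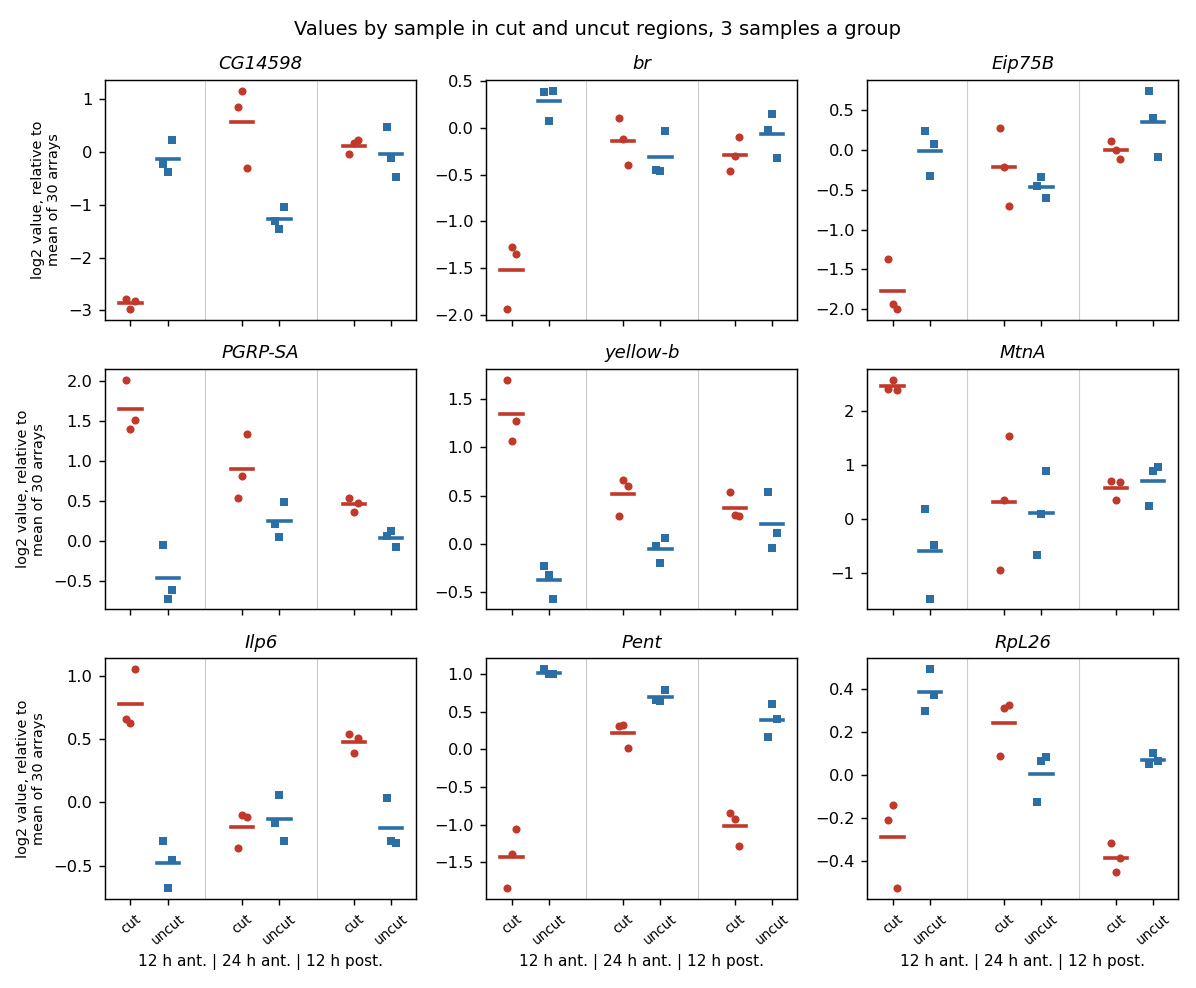
Log2 values relative to the mean of all 30 arrays (vertical axes) by sample for 9 genes, in cut (red circles) and uncut (blue squares) samples of the 12 h anterior, 24 h anterior and 12 h posterior regions, with bars at the means of 3 samples. In each of the 9 panels the cut and uncut samples of the 12 h anterior group are separate. All 9 genes are past the threshold in that comparison, so the choice favoured this. No overlap was found for 1177 of the 1480 probe sets of the authors' table. At 24 h in the anterior they overlap for genes that include br, Eip75B, MtnA and Ilp6.

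Uncultured anterior samples show where the 12 h groups stood relative to the starting disc. They were not used in the test above, and the uncut 12 h samples serve as reference there and as the cultured group here, so the values are only set side by side. PGRP-SA averaged 1.64 in cut, -0.46 in uncut 12 h and -2.46 in uncultured samples, and obst-E averaged 1.62, -0.004 and -2.60 in the same order. Both genes were thus higher in uncut samples after culture than before and higher still in cut samples. In the other direction ImpE2 averaged -2.48, 0.61 and 3.39, and br averaged -1.52, 0.29 and 0.90. Ilp8 averaged 1.68, -1.48 and -1.05, and upd averaged 1.74, -0.88 and -0.95, so that for both genes the cut mean stood far above the other means. The probe set of RpS9 with the larger fall differed from both patterns, with -0.25 in cut samples, 0.73 in uncut 12 h samples and -0.32 in uncultured samples. Its mean in cut samples was close to that before culture.

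The authors' deposited table assigns each probe set to 1 of 4 k-means clusters. At 12 h in the anterior, cluster I held 158 probe sets with 133 rises, 0 falls and a median log2 difference of 1.33, and cluster II held 590 with 218 rises, 8 falls and a median of 0.32. Cluster III held 95 with 92 falls and a median of -1.33, and cluster IV held 637 with 501 falls, 1 rise and a median of -0.54. Since the clusters were made from the comparisons themselves, these counts describe them and test nothing.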

How the data were processed

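Gene expression was measured on Affymetrix arrays from RNA amplified in 2 cycles, in 30 samples of 10 groups of 3, which the labels call biological replicates. The authors' deposited value table holds log2 values per probe set, made with RMA per the submitters' processing notes, which also name limma and give no versions. The log base is not written in the files and was read as 2. Each probe set was centred by the authors on its mean over the 30 arrays, per the values, so no level or filter on dim probe sets was possible. The authors' deposited tables also hold adjusted p-values of an overall test per probe set, kept where they were under 0.001.

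From the deposited values, limma 3.58.1 in R 4.3.3 fitted a mean for each of the 10 groups, with Benjamini-Hochberg adjustment over 18769 probe sets after 183 array controls were left out. The differences equalled those of the authors' table to 1e-09, and all of its 1480 rows were among the 1484 that passed the same overall test in the refit. The fit was tested on simulated data. An exact test of 3 against 3 samples could not go below p = 0.1. The number of arrays limits the precision. Intervals are 95% intervals of the mean difference, from a spread that the fit estimated over all 10 groups and moderated over probe sets. They do not describe the spread of the 6 samples compared.

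The members and gene lists were chosen with earlier results of these data known. The lists of ribosomal proteins, tetraspanins, BTB factors and sensory organ genes were added after values had been seen. From the lists, 1 gene is not reported here and not counted. The genes named are the 15 largest rises and 15 largest falls past an adjusted p of 0.05 with no overlap between groups, list members past the threshold or of key pathway roles, and the 6 largest differences per direction of each interaction. The planned choice of 1 probe set a gene by its highest mean could not be applied to centred values. Rows of the cut table were taken first, and among them the one with the largest variance over the 8 groups outside the comparison. Of 3153 symbols, 3113 matched a current RefSeq symbol. Compartment genes such as hh, en, ci and ptc were not analysed here. No sequences were used here. Alternatives were a fit of the 6 samples, the replicate number as a block, robust estimation, quantile and median normalization, array weights, a 2-fold limit, other probe sets and leaving out single samples.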

Additional observations from a re-analysis of the deposited data

Results flagged for a closer look

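A total of 87 results for named genes stood out because the response to the cut in the 12 h anterior region differed from that in another comparison by a test of the difference itself, the interaction term of the limma fit with Benjamini-Hochberg adjustment over all probe sets. The named genes are those of the lists and the naming rule, with 1 probe set a gene. A second probe set of obst-E passed neither test. Against 24 h, another probe set of ftz-f1 and another of Eip75B did not pass, nor did another of br against the posterior. Values below are differences of log2 responses, 12 h anterior response minus the other, and no group of samples is large enough for a check of outliers. Each call was refitted without each 1 of its 12 samples. No explanation was tested for any of them.

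Against the posterior region at 12 h, 12 named genes had a higher anterior response, Spn42De (0.96), CG6579 (1.14), TepII (1.19), Tsp42El (1.39), yellow-b (1.55), PGRP-SA (1.68), CG7432 (1.74), obst-E (1.90), Tig (2.14), CG8317 (2.79), MtnA (3.18) and CG13215 (4.06). The 8 with a lower one were CG14598 (-2.90), CG10960 (-2.02), CG9896 (-1.74), CG32447 (-1.71), Wnt2 (-1.66), br (-1.58), Ppn (-1.30) and Pent (-1.04). All but that of CG14598 were lost in some of the 12 refits: obst-E and Wnt2 in 11, Spn42De, CG7432, Ppn and Pent in 10, Tsp42El, CG10960 and CG9896 in 9, CG13215 and CG32447 in 8, CG8317 in 7, CG6579, TepII, yellow-b and MtnA in 5, Tig in 3, br in 2 and PGRP-SA in 1.

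Against the anterior region at 24 h, 27 named genes had a higher response at 12 h. The immunity and stress genes were TepII (0.86), nec (1.10), PGRP-SA (1.45), PGRP-LF (1.49), psh (2.01) and TotM (4.43). The metal-binding genes were MtnD (2.07) and MtnA (2.84). The tanning, cuticle and chitin genes were yellow-b (1.15), Cpr72Ea (1.34), e (1.47), yellow-c (1.62) and obst-E (1.66). The secreted signal, membrane, matrix and muscle genes were Tsp42Ei (0.57), upd3 (0.60), Ilp6 (1.32), Mmp2 (1.47), bt (1.51), Tig (1.58) and CG8317 (2.81). The others were toy (0.55), CG6579 (1.03), ftz-f1 (1.21), CG7432 (1.69), CG11852 (2.58), CG5002 (2.65) and CG9701 (3.09). Of these calls, 12 were lost in some refits: Tsp42Ei in 11, yellow-b in 10, PGRP-LF and psh in 9, TepII and yellow-c in 8, obst-E in 7, upd3 and CG11852 in 6, CG9701 in 5, Tig in 3 and toy in 1.

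A lower response at 12 h than at 24 h was found for 40 named genes. The ecdysone factors were Eip75B (-2.01), br (-1.98) and Eip74EF (-1.23). The ribosomal protein genes were RpL29 (-1.10), RpL11 (-0.94), RpS13 (-0.91), RpL26 (-0.91), RpS18 (-0.84), RpS28b (-0.79), RpL34a (-0.70) and RpS23 (-0.58). The cell cycle and replication genes were CycE (-1.14), DNApol-alpha50 (-1.03), mus209 (-0.66) and RnrS (-0.58). The patterning, signalling and transcription factor genes were Pent (-1.98), HLHmdelta (-0.99), twi (-0.94), ara (-0.85), Scr (-0.84), ush (-0.76), fz (-0.75) and vvl (-0.70). The others were CG14598 (-4.58), CG6910 (-2.52), CG9896 (-2.32), regucalcin (-2.22), CG10960 (-2.02), CG32447 (-1.93), Hsp67Ba (-1.81), Ppn (-1.49), Sr-CI (-1.35), kra (-1.02), tok (-0.79), CG1553 (-0.78), Act5C (-0.64), p120ctn (-0.63), jar (-0.60), Sod (-0.59) and His2Av (-0.56). Of these calls, 17 were lost in some refits: Sr-CI, vvl, mus209 and Sod in 9, CG1553 and Act5C in 8, tok, ush, RnrS and His2Av in 7, Hsp67Ba and DNApol-alpha50 in 6, CG6910 in 5, p120ctn in 3 and kra, ara and RpS23 in 1.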

How the results depend on the processing

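The counts moved with the call rule, the weighting and single samples. With a 2-fold limit added, 175 probe sets were higher and 164 lower in cut than in uncut samples, 30 differed between regions and 136 between times. Leaving out 1 sample gave 366 to 557 higher calls, 469 to 971 lower calls, 3 to 44 region differences and 169 to 519 time differences. The count of higher calls was 370 without replicate 3 of the cut samples, 388 without replicate 2 and 366 without replicate 3 of the uncut samples. That of lower calls was 469 without replicate 3 of the cut samples and 673 without replicate 1 of the uncut samples. Region differences numbered 7 without replicate 1, 18 without replicate 3 of the cut 12 h anterior samples, 24 without replicate 1 and 3 without replicate 3 of the uncut 12 h anterior samples, 11 without replicate 2 and 4 without replicate 3 of the cut 12 h posterior samples, and 12 without replicate 3 of the uncut 12 h posterior samples. Time differences numbered 169 without replicate 3 of the cut and 178 without replicate 1 of the uncut 12 h anterior samples. At 24 h they numbered 220 without replicate 1 and 187 without replicate 2 of the cut samples, and 242 without replicate 1 and 263 without replicate 2 of the uncut samples. Region differences also numbered 20 with robust estimation and 143 with array weights, against 39 as reported. The cause of these moves was not tested. The overall counts stayed within 1.5 times of the reported ones under quantile and median normalization, array weights for the counts at 12 h and for time differences, robust estimation for the same counts, and the fit of the 6 samples. Of the 216 named genes called, 164 to 198 were still called when 1 sample was left out and 194 to 216 under the other fits, and none changed sign under these settings. Counts by list moved too without replicate 3 of the cut 12 h anterior samples. Falls then numbered 4 in the Notch list, against 8, and 3 in the Dpp and Activin list, against 7. They numbered 3 in the growth and nutrient list, against 7, and 7 among ribosomal proteins, against 11. The leg patterning list had 9 falls, against 10, and the innate immunity list 10 rises, against 12. Besides Gld and B-H2, the calls lost under quantile normalization include b (adjusted p = 0.0503), bi (0.174), Ppn (0.223) and repo (0.425). Those lost in the fit of the 6 samples include Ald, bi, Hml, kkv, Mad, Pvr, shn, Sod2 and trx (adjusted p up to 0.114). With array weights bi (0.146) and GstE6 (0.0568) were lost, with robust estimation bi (0.0564), GstE6 (0.0866), Hml (0.0567) and repo (0.0585), and with the block Mad (0.0507). A second probe set of fzy (0.0081, adjusted p = 0.983) and another of lola (0.13, adjusted p = 0.709) had the opposite sign of the one reported, without passing. With the replicate number as a block, 631 were higher and 1130 lower, 43 differed between regions and 455 between times, and 215 of 216 named genes were still called. The deviations of same-numbered samples correlated at 0.094, -0.19 and 0.081. With 3 samples a group these values cannot show whether the numbers pair the samples, and the reported fit used no pairing. A filter on dim probe sets and a variance trend were not run, since centred values keep no level.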

Other observations

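Outside the authors' cut table, 707 further probe sets passed the threshold in the comparison of cut with uncut 12 h anterior samples, and 159 of these are named in the authors' table of culture comparisons. The detoxification list had a median log2 difference of 0.65 in the 12 h anterior, -0.47 in the 12 h posterior and 0.42 in the 24 h anterior region, and the ribosome biogenesis list had 0.34, 0.54 and 0.60. None of these medians was tested.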
